A study of Mus musculus with 6 samples.

Results

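The 6 genes described here encode subunits of the voltage-gated sodium channel family and its close relatives: the alpha subunit genes Scn4a, Scn10a and Scn7a and the beta subunit genes Scn2b, Scn3b and Scn4b. They were taken by name from the 24239 rows of the deposited table of expression values by mouse, in which each has 1 row, and the other genes of the family are not analysed here. Ventricles came from male C57BL/6 mice aged 8 to 10 weeks, 3 of them sham controls without pacing and 3 paced from the atrium over 8 treatment days. A bipolar catheter lying in the esophagus delivered the stimuli every 80 ms for 45 min, preceded and followed by 3 min with a stimulus every 120 ms. Sessions were held on 5 days, then, following a pause of 2 days, on another 3. No transgene or drug is named for either group. The comparison asks whether repeated fast pacing from the atrium is followed by a different supply of sodium channel transcripts in the ventricle.

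An alpha subunit forms the pore through which sodium enters and starts the action potential of heart muscle, skeletal muscle and nerve. A beta subunit spans the membrane once, carries an immunoglobulin-like domain outside the cell, and tunes the gating and the surface level of the alpha subunit. Scn4a encodes the main alpha subunit of skeletal muscle and Scn10a a tetrodotoxin-resistant channel best known from sensory neurons. Scn7a encodes a sodium-sensing relative that is not opened by voltage in the usual way and is known from glia and Schwann cells. The products of Scn2b and Scn4b are joined to the alpha subunit by a disulfide bond, while that of Scn3b binds without one, and the intracellular tail of the Scn4b product can block open channels.

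Expression is given as FPKM, fragments scaled by transcript length and library size, so that levels can be compared between genes within a mouse. Between mice they compare less exactly, since the FPKM sums of the libraries ran from 658699.9 in pacing 3 to 756535.1 in sham 3. Low values move in steps of single fragments, and these steps gave an effective depth of 6276000 to 8908000 fragments per library. At that depth the values of Scn4b rest on about 312 to 537 fragments per mouse, those of Scn7a on 250 to 629, and those of Scn4a on 127 to 268. Far fewer stand behind Scn10a (26 to 64), Scn3b (6 to 59) and Scn2b (2 to 8), whose counting error reached 18.8%, 41.1% and 72.9% of the value. The labelled tissue was borne out by the ventricular light chain Myl2, at 25481 to 39377 FPKM, but atrial transcripts were present as well and differed between libraries: Myl7, the atrial light chain, stood at 2700, 31.4 and 966 FPKM in sham mice 1 to 3 and at 1141, 3520 and 2358 in pacing mice 1 to 3. The 8 lung epithelium markers summed to 314 and 1724 FPKM in pacing 2 and pacing 3, against 0.472 to 4.97 in the other 4 mice. Fewer cells of a type and less RNA per cell cannot be told apart in such bulk samples.

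In mm10 coordinates Scn4a lies on chromosome 11 from 106318593 to 106349390, Scn7a on chromosome 2 from 66673426 to 66784910, and Scn10a on chromosome 9 from 119608456 to 119719032. These 3 alpha subunit genes are on the minus strand of the GENCODE annotation. Chromosome 9 also holds the beta subunit genes, all on the plus strand, with Scn3b from 40269216 to 40291618 and Scn4b from 45139042 to 45154061. Scn2b is the close neighbour of Scn4b, but its deposited interval, from 45079183 to 45135606, is wider than the annotated gene at 45117782 to 45130070. That interval also overlaps Jaml, a protein-coding gene on the same strand with no deposited row under that name. Whether reads of Jaml enter the Scn2b values was not tested. Within the interval the antisense RNA Gm10684, at 0.01 to 0.22 FPKM, overlaps Scn2b itself. The strand setting of the authors' counting is not given in the sources used here, so reads of Scn2b and Gm10684 cannot be told apart. The same holds for Scn3b and the antisense Gm47266, which overlaps it and has no deposited row.

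The 250 bases before the RefSeq start are shown for Scn4a and Scn7a, the tested subunit genes with the lowest p among those with a negative and a positive difference; for both, that start is the edge of the deposited gene interval. GENCODE lets the Scn4a gene reach further upstream, to 106353288, through a noncoding transcript that overlaps the window shown. The sequences are from RefSeq (GRCm38.p6), written 5′ to 3′ on the minus strand, at chr11:106349391-106349640 and chr2:66784911-66785160. Capitals mark each match to the E-box CANNTG, bound by basic helix-loop-helix factors, or to CACCC, bound by Sp and KLF factors, on either strand.
Scn4a: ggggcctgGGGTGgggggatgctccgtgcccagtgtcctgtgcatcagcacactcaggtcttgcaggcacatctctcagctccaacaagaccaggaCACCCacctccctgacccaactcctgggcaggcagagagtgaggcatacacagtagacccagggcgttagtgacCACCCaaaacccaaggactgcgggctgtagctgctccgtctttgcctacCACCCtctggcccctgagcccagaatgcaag
Scn7a: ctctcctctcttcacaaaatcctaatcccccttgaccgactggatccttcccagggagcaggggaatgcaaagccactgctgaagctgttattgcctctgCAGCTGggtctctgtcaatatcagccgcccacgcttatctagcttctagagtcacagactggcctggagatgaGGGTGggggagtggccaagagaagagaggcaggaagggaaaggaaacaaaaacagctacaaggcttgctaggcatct
The Scn4a window holds 4 CACCC matches and 0 E-boxes, and the Scn7a window holds 1 of each, with no overlap between the motifs in either. Among 32851 windows of this length, 66.2% hold an E-box and 52% a CACCC match. The G and C content was 61.6% before Scn4a and 53.2% before Scn7a. Of the 6 genes, 5 have such a window in the table, Scn3b being the one without.

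Among these subunits Scn4b had the highest level in each of the 6 mice, followed by Scn7a and then Scn4a. In sham ventricles Scn4b stood at 12.5 ± 3.63 FPKM (SD, n = 3 here and below), Scn7a at 5.93 ± 0.383 and Scn4a at 4.34 ± 0.874. The ranges of Scn7a and Scn4a did not overlap in the sham mice, with 5.57 FPKM the lowest Scn7a value and 5.28 the highest Scn4a value. Scn10a, at 0.75 ± 0.0658 FPKM, lay above Scn3b, at 0.39 ± 0.22, in every mouse except pacing 3, where Scn3b was the higher. Scn2b was the lowest throughout, at 0.116 ± 0.0289 FPKM. Scn4b made up 40.7% to 59.3% of the summed FPKM of the 6 genes in sham mice and 41.5% to 54.6% in paced mice.

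**Figure D1:**
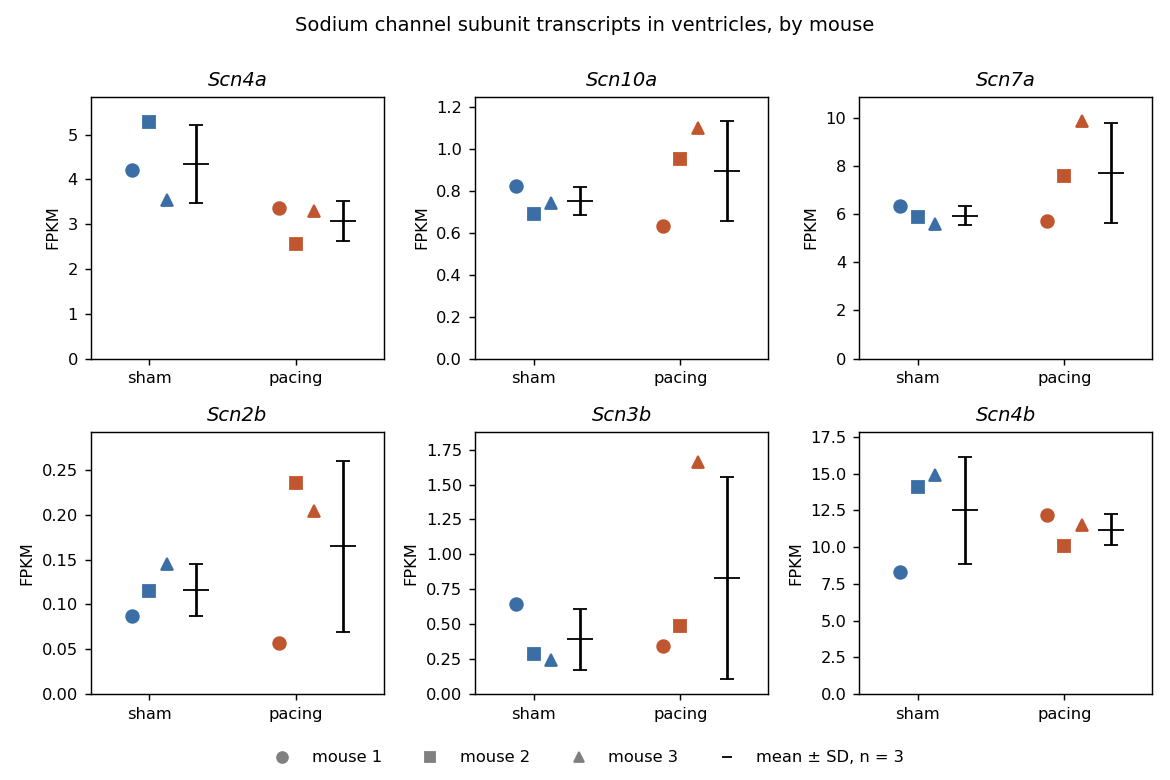
FPKM of the 6 sodium channel subunit genes in each mouse (vertical axes, separate scale per gene, starting at 0), with sham in blue, pacing in orange, a symbol for each mouse and the mean ± SD of 3 mice in black. The paced mice lie below the sham mice for Scn4a (2.55 to 3.36 against 3.55 to 5.28), and the groups overlap for the other 5 genes.

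Scn4a was lower in paced than in sham ventricles, and it was the only one of the 6 genes whose groups did not overlap. Its level was 4.20, 5.28 and 3.55 FPKM in sham mice 1 to 3 and 3.36, 2.55 and 3.30 in pacing mice 1 to 3. Sham 2 was the highest and pacing 2 the lowest, and the nearest values of the groups, 3.55 and 3.36, differ by less than the counting error of either (8.4% and 7.6%). The group means were 4.34 ± 0.874 and 3.07 ± 0.454 FPKM, a ratio of 0.707. As log2(FPKM + 1), a scale that makes changes of low genes look smaller, the difference was -0.39 (SE 0.15, 95% interval -0.72 to -0.05), with a limma p of 0.0296 and an adjusted p of 0.526 over the 11994 genes whose mean FPKM reached 1. It thus did not pass the adjusted threshold of 0.05, and leaving out sham 2 brought the difference to -0.26. The authors' deposited table lists Scn4a at 4.32 and 3.05 FPKM, gives it a q-value of 0.0368 and calls it lower.

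Scn4a's p has to be read against the whole table. Of the genes tested with limma, 0% passed an adjusted p of 0.05 in either direction. At an unadjusted p under 0.05, 5.17% were higher and 3.69% lower (8.85% in all), that is 620 and 442 genes, and Scn4a was 1 of 3 subunit genes tested. Groups without overlap were found in 6.24% of tested genes with pacing higher and 6.97% with pacing lower. Of the 24341 rows in the authors' deposited table, 1.23% are called higher and 0.152% lower, and 1 of the 6 subunit genes is among the lower calls. Scaling moved that split: 969 genes were higher and 148 lower once libraries had been rescaled to equal sums, while median centring gave 514 and 609 and quantile normalization 537 and 581.

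When log2 values were centred on 15 ventricular cardiomyocyte markers, the Scn4a difference shrank to -0.19 (limma adjusted p = 0.548). The same step moved the median over all genes from -0.007 to 0.189, and 13 of the 15 markers had a negative difference without it (median -0.189), among them Myl2 at 34040 ± 6432 and 25940 ± 606 FPKM, with no overlap between the groups. The part of the cardiomyocyte share in the Scn4a result was not tested. Scn4a is best known from skeletal muscle, and the 12 skeletal muscle markers summed to 5.63 to 10.6 FPKM in sham and 8.03 to 8.46 in paced mice. The most abundant of these, the fast troponin I gene Tnni2, stood at 3.77 ± 0.87 and 3.31 ± 1.56 FPKM, near the level of Scn4a, and the fast light chain gene Mylpf at 1.51 ± 0.438 and 1.85 ± 0.827; both overlapped between the groups. Pvalb ranged from 0.01 to 2.95 FPKM. The fast myosin heavy chains were at or near the floor of 0.01, with Myh4 at most 0.0421, Myh1 at most 0.022 and Myh2 at most 0.0217, and Chrng was at the floor in all 6 libraries. The part of skeletal muscle in the Scn4a values was not tested.

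Scn7a had a higher mean in paced ventricles, and the difference came from 2 of the 3 paced mice. It stood at 6.33, 5.89 and 5.57 FPKM in sham mice 1 to 3 and at 5.71, 7.56 and 9.85 in pacing mice 1 to 3. Pacing 1 lay within the sham range, so the groups overlapped. The means were 5.93 ± 0.383 and 7.71 ± 2.07 FPKM, a ratio of 1.30, with a log2 difference of 0.30 (SE 0.16, 95% interval -0.07 to 0.68, limma adjusted p = 0.649). The authors' deposited table gives 5.89 and 7.65 FPKM with a q-value of 0.117. Without pacing 2 and pacing 3, the libraries with lung transcripts, the difference was -0.04, and without pacing 3 alone it was 0.13. It was 0.48 without pacing 1, and 0.50 centred on ventricular cardiomyocyte markers, where the median of all genes moved up as given above.

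Markers of other cell types were measured beside Scn7a. The 12 fibroblast markers, all with a positive difference (8 of 12 at an unadjusted limma p under 0.05, against 5.17% of all genes tested, and 0 at an adjusted p under 0.05), summed to 2162, 1554 and 1714 FPKM in sham mice 1 to 3 and to 1937, 2412 and 2627 in pacing mice 1 to 3, highest in the 2 mice with the highest Scn7a. Gsn and Dcn, which make up most of that sum, stood at 852 ± 178 and 608 ± 50.7 FPKM in sham and at 1060 ± 232 and 782 ± 134 in paced ventricles. Not all fibroblast markers lay in the order of the sum. Mfap5 and Clec3b were highest in pacing 1 (35.2 and 105 FPKM), the paced mouse with the lowest Scn7a. Dpt and Tcf21 were highest in sham 1 (146 and 16.2 FPKM), and the remaining markers in pacing 3. The 12 Schwann cell and nerve fibre markers summed to 22.7 to 27.1 FPKM in sham and 25.5 to 30.4 in paced mice, and of the 6 tested 5 had a positive difference (1 of 6 at an unadjusted p under 0.05 and 0 at an adjusted one). Among them the myelin gene Mbp stood at 2.84 ± 1.36 and 4.99 ± 1.5 FPKM, and Mal at 9.45 ± 0.524 and 8.54 ± 0.858. The glial factor Sox10 was at 0.689 to 0.905 FPKM in sham and 0.826 to 1.23 in paced mice. Pacing 2 and pacing 3, highest in Scn7a and in the fibroblast sum, were also the libraries with lung transcripts. Their lung epithelium markers summed to 314 and 1724 FPKM. The part of fibroblasts, Schwann cells, nerve fibres and lung tissue in the Scn7a result was not tested.

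The ratio of Scn7a to Scn4a within a library does not depend on how libraries are scaled. It was 1.51, 1.12 and 1.57 in sham mice 1 to 3 and 1.70, 2.97 and 2.99 in pacing mice 1 to 3, without overlap. This ratio was chosen after the values were seen and carries no test.

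Scn4b, the most abundant of the 6, did not differ beyond its spread. It stood at 8.29, 14.1 and 14.9 FPKM in sham mice 1 to 3 and at 12.2, 10.1 and 11.5 in pacing mice 1 to 3. Sham 1 was the lowest and the other sham mice the highest, with all paced mice between them. The means were 12.5 ± 3.63 and 11.2 ± 1.04 FPKM and the log2 difference -0.10 (SE 0.19, limma adjusted p = 0.914). The 95% interval, from -0.54 to 0.34, leaves room for a change in either direction. The value depends on each sham mouse: the difference was -0.35 without sham 1 (limma adjusted p = 0.202), 0.0 without sham 2 and 0.04 without sham 3. Centred on ventricular cardiomyocyte markers the difference was 0.10, under the shift of all genes given above. The authors' deposited table lists 12.4 and 11.2 FPKM with a q-value of 0.948.

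Atrial markers were measured beside Scn4b. The 3 libraries with the most Myl7 (pacing 2 at 3520, sham 1 at 2700 and pacing 3 at 2358 FPKM) held the lowest Scn4b, and the 3 with the least (sham 2 at 31.4, sham 3 at 966, pacing 1 at 1141) the highest. The 10 atrial markers summed to 13291, 657 and 5681 FPKM in sham mice 1 to 3 and to 6161, 15435 and 11116 in pacing mice 1 to 3, and none was at the floor; Fgf13, a partner of the channel, is also on that list. For Scn4a, sham 2 with the least Myl7 was the highest and pacing 2 with the most Myl7 the lowest, but sham 1 was the second highest. The part of atrial tissue in these values was not tested.

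**Figure D2:**
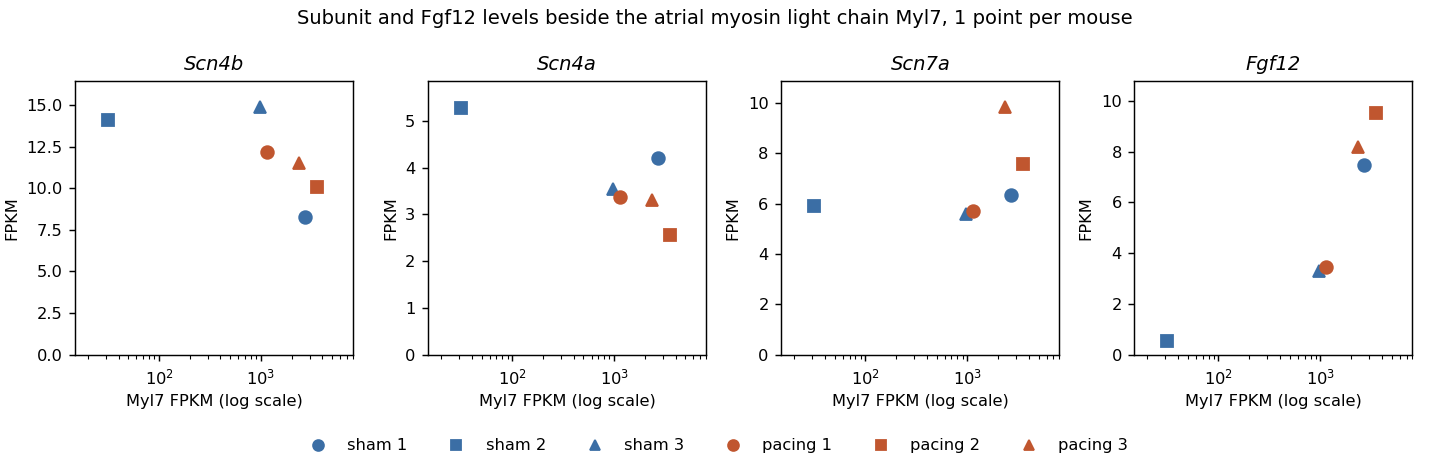
FPKM of Scn4b, Scn4a, Scn7a and Fgf12 (vertical axes, starting at 0) against FPKM of the atrial light chain Myl7 (horizontal axis, log scale), with 1 point per mouse, sham in blue and pacing in orange. Fgf12 goes from 0.537 in sham 2, the library with the least Myl7, to 9.53 in pacing 2, the library with the most, while Scn4b is highest in the 3 libraries with the least Myl7.

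The 3 remaining genes had a mean FPKM under 1 and did not enter the limma fit, so each was compared by an exact two-sided permutation test, whose smallest possible p with 3 mice per group is 0.10. Scn10a stood at 0.82, 0.69 and 0.741 FPKM in sham mice 1 to 3 and at 0.633, 0.95 and 1.1 in pacing mice 1 to 3. Pacing 1 was the lowest of all and pacing 3 the highest, so that the groups overlapped (means 0.75 ± 0.0658 and 0.893 ± 0.237 FPKM, exact permutation p = 0.40, adjusted over the 3 genes 0.50). Scn3b stood at 0.643, 0.286 and 0.24 FPKM in sham mice 1 to 3 and at 0.341, 0.486 and 1.66 in pacing mice 1 to 3. Its higher paced mean, 0.83 ± 0.725 against 0.39 ± 0.22 FPKM, rests on pacing 3 (log2 difference 0.34, and 0.03 without that mouse; exact permutation p = 0.50). Scn2b stood at 0.0874, 0.115 and 0.145 FPKM in sham mice 1 to 3 and at 0.0563, 0.235 and 0.204 in pacing mice 1 to 3, and with 2 to 8 fragments per mouse no difference was detectable at this depth (exact permutation p = 0.50). The authors' deposited table gives a q-value of 1.0 for each of the 3. Pacing 2 and pacing 3, the libraries with lung transcripts, held the 2 highest values of Scn10a and of Scn2b. Pacing 3 also held the highest Scn3b, but sham 1 lay above pacing 2 for that gene. The part of lung tissue in these values was not tested.

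The 12 neuron markers, measured because Scn10a is best known from neurons, summed to 12.9, 12.3 and 11.6 FPKM in sham mice 1 to 3 and to 14.8, 20.9 and 18.0 in pacing mice 1 to 3. Of the 4 that passed the filter, 2, Tubb3 and Npy, had each paced mouse above each sham mouse, against 6.24% of all genes tested. These 2 reached the filter only through the paced mice, so their count cannot be weighed against that share. Of the 4, 0 passed the adjusted limma threshold. The neuronal tubulin Tubb3 stood at 0.47 ± 0.126 and 1.75 ± 0.419 FPKM and neuropeptide Y, Npy, at 0.232 ± 0.384 and 1.87 ± 1.36. Chat, Snap25, Elavl4 and Slc18a3 were among those at the floor in all sham mice. Among paced mice Chat was above the floor only in pacing 2 (0.0488 FPKM) and Slc18a3 only in pacing 3 (0.0499). Elavl4 was at the floor in pacing 1 and at most 0.101 FPKM. Snap25 stood at 0.0634, 0.925 and 0.862 FPKM in pacing mice 1 to 3. The most abundant, Uchl1, overlapped between the groups (9.11 ± 0.976 and 10.2 ± 1.45 FPKM), as did Dbh (2.00 ± 1.02 and 1.88 ± 0.668). The sum was highest in pacing 2, whereas Prph, a neuronal intermediate filament gene, was highest in pacing 3 (1.05 FPKM), as were Scn10a and Scn3b. The part of neurons in these values was not tested.

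The balance among beta subunits was compared by ratios within each library. Scn4b exceeded Scn3b 12.9, 49.4 and 62.2 times in sham mice 1 to 3 and 35.6, 20.8 and 6.88 times in pacing mice 1 to 3 (log2 difference -0.98, exact permutation p = 0.40, adjusted over 3 ratios 0.60). The ratio thus spread about as widely within a group (SD 1.23 and 1.21 on the log2 scale) as between groups. Scn4b exceeded Scn2b 94.9, 123 and 103 times in the sham mice and 216, 43.1 and 56.1 times in the paced mice (log2 difference -0.40, exact permutation p = 0.60). Scn3b over Scn2b ranged from 1.66 to 7.35 in sham and from 2.07 to 8.14 in paced mice (log2 difference 0.59, exact permutation p = 0.60). Scn2b's few fragments limit both of these.

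**Figure D3:**
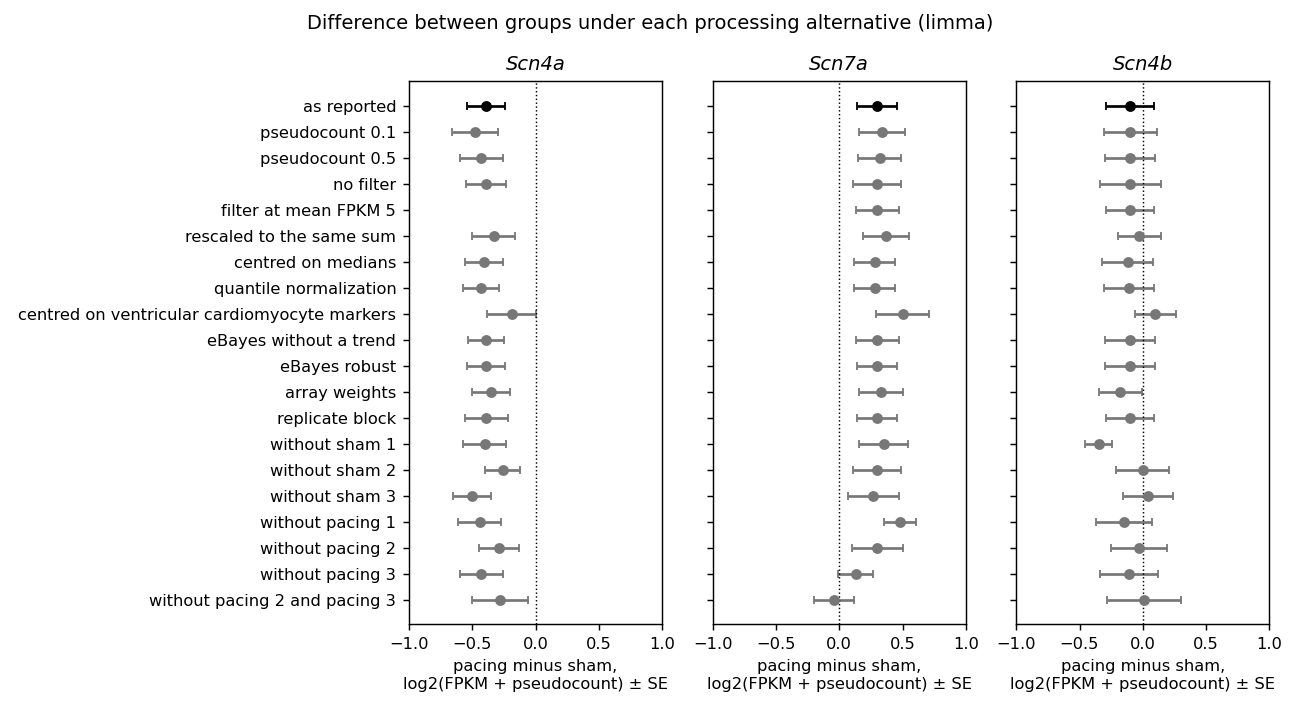
Pacing minus sham difference ± SE for Scn4a, Scn7a and Scn4b (horizontal axes, log2(FPKM + pseudocount)) as reported, in black, and under each processing alternative, in grey; Scn4a has no point at a mean FPKM filter of 5, which it does not pass. Scn4a stays below 0 throughout, Scn7a is at -0.04 without pacing 2 and pacing 3, and Scn4b crosses 0.

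Beyond the subunits, 28 partners and regulators of cardiac sodium channels were followed, of which 27 were tested with limma. Of these 10 had a positive and 17 a negative difference, with a median of -0.054 against -0.007 over all genes tested, and 0 passed the adjusted threshold. At an unadjusted p under 0.05, 0 were higher and 2 lower, against 5.17% and 3.69% of all genes tested. The groups did not overlap in 6 genes, all with pacing lower, namely Fgf14, Rangrf, Camk2d, Camk2g, Ank2 and Cav3, and in 0 genes with pacing higher, against 6.97% and 6.24% of all genes tested. Fgf14 reached the filter only through the sham mice (mean 1.33 FPKM, against 0.864 in paced mice), so the filter itself favoured its place among the 6. Camk2g and Cav3 are outside the rule for named genes and were picked after their values were seen.

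Among the lower genes, Ank2, which encodes the membrane adaptor ankyrin-B, stood at 21.0, 25.0 and 24.8 FPKM in sham mice 1 to 3 and at 20.2, 19.1 and 18.6 in pacing mice 1 to 3. Each paced mouse lay below each sham mouse, by a narrow margin for sham 1 (log2 difference -0.27, SE 0.09, limma adjusted p = 0.484). Rangrf, whose product aids the transport of the channel to the cell surface, stood at 90.4, 86.8 and 109 FPKM in the sham mice and at 69.7, 86.3 and 70.2 in the paced mice (log2 difference -0.33, SE 0.12, limma adjusted p = 0.492). Pacing 2 came within 0.5 FPKM of sham 2. Cav3, the caveolin of muscle caveolae, stood at 84.8 ± 4.18 and 75.4 ± 3.30 FPKM. The kinase gene Camk2d, whose product phosphorylates the channel, stood at 30.4 ± 2.87 and 27.6 ± 0.645 FPKM (log2 difference -0.13, but 0.06 centred on ventricular cardiomyocyte markers), and Camk2g at 20.2 ± 1.99 and 18.0 ± 0.773.

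The fibroblast growth factor homologous factors, intracellular proteins that bind the tail of alpha subunits and set their inactivation, did not move together. Fgf13, the most abundant of these in the ventricle, stood at 35.3 ± 4.80 FPKM in sham and 33.8 ± 3.31 in paced mice (log2 difference -0.06, SE 0.12, but 0.02 rescaled to equal sums and 0.14 centred on ventricular cardiomyocyte markers). Fgf14 was low, at 1.25, 1.33 and 1.40 FPKM in the sham mice and 0.654, 0.873 and 1.06 in the paced mice, without overlap (log2 difference -0.33, SE 0.15, limma adjusted p = 0.569). Fgf11 stood at 1.54 ± 0.449 and 1.97 ± 0.353 FPKM, with overlap.

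Fgf12 had the largest difference of the list and the widest error. It stood at 7.47, 0.537 and 3.29 FPKM in sham mice 1 to 3 and at 3.45, 9.53 and 8.19 in pacing mice 1 to 3 (log2 difference 0.98, SE 0.57, limma adjusted p = 0.671). The authors' deposited table gives 3.74 and 7.0 FPKM for it with a q-value of 0.00328 and calls it higher. By mouse, sham 2 held the least of Fgf12 and of the atrial light chain Myl7, sham 3 and pacing 1 came next, and pacing 2 held the most of both. Not all markers of the atrial list lay in that order: Bmp10, named after its values were seen, was lower in pacing 2 (16.8 FPKM) and pacing 3 (28.7) than in sham 3 (38.6) and pacing 1 (38.1), and Fgf13 was lowest in sham 1. The part of atrial tissue in the Fgf12 values was not tested. The difference was 0.32 without sham 2, 1.56 without sham 1 and 0.22 without pacing 2 and pacing 3.

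Of the genes followed for their role, the ubiquitin ligase Nedd4l, which marks channels for removal from the membrane, stood at 4.41 ± 0.205 FPKM in sham and 4.57 ± 0.478 in paced mice. The ankyrin-G gene Ank3, which anchors channels at the intercalated disc, stood at 7.25 ± 0.751 and 6.93 ± 0.405, and Gpd1l at 24.6 ± 2.67 and 23.0 ± 1.05. These 3 overlapped between the groups and their log2 differences lay between -0.09 and 0.04 (limma adjusted p from 0.823 to 0.944). The sign of Ank3 turned after rescaling (0.01), and those of Ank3 (0.14) and Gpd1l (0.10) turned when centred on ventricular cardiomyocyte markers. Wwp2, another ubiquitin ligase, had the smallest p among the higher genes, at 7.97 ± 0.921 and 9.18 ± 0.21 FPKM (log2 difference 0.19, SE 0.10, limma adjusted p = 0.642).

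**Figure D4:**
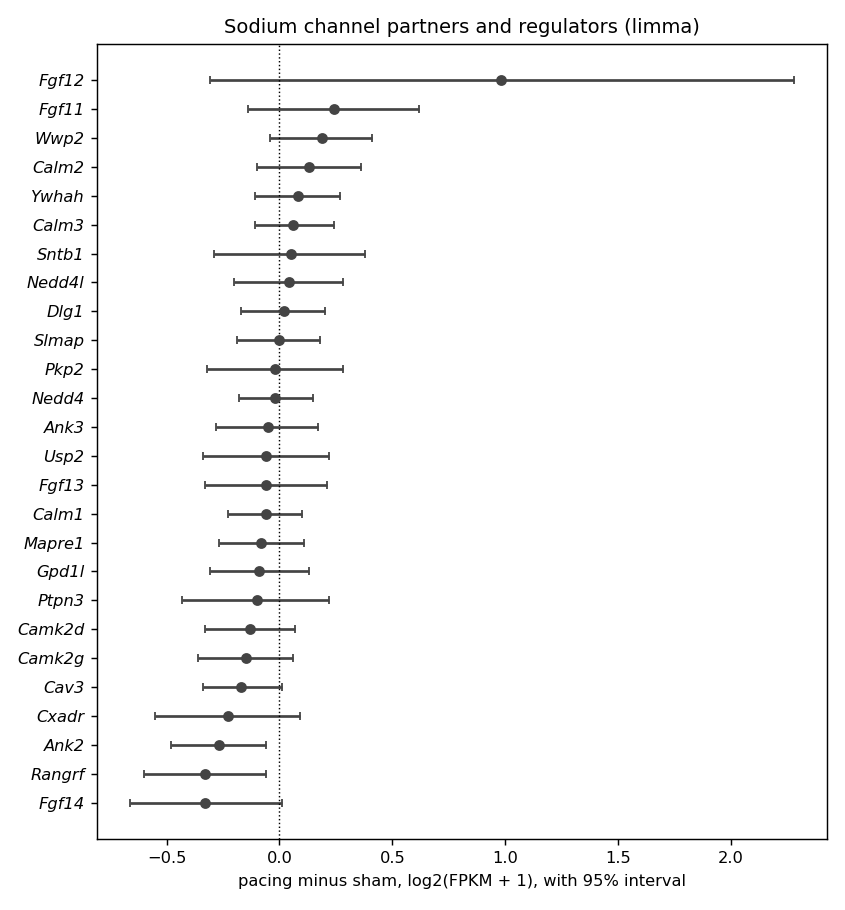
Pacing minus sham difference on the log2(FPKM + 1) scale (horizontal axis) with its 95% interval for 26 of the 27 tested partners and regulators of sodium channels (vertical axis), in order of the difference. The intervals of Ank2 and Rangrf lie below 0, and that of Fgf12 runs from -0.31 to 2.28.

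The genes whose pattern over the 6 mice was most like that of each tested subunit were found by the root mean square difference of centred log2(FPKM + 1) values. For Scn4a these were Nabp1 (0.056) and Magi3 (0.057), at 20.9, 25.3 and 20.4 FPKM and at 16.2, 18.2 and 14.8 FPKM in sham mice 1 to 3. In pacing mice 1 to 3 Nabp1 stood at 17.8, 14.3 and 18.1 FPKM and Magi3 at 13.1, 10.8 and 13.0. Nearest to Scn7a were the host RNA Snhg12 (0.048) and the growth factor gene Tgfb2 (0.064), the latter at 2.61, 1.95 and 1.89 FPKM in the sham mice and 1.98, 2.89 and 3.82 in the paced mice. Crnde (0.076) and the mitochondrial isocitrate dehydrogenase Idh2 (0.081) were nearest to Scn4b, with Idh2 at 1136, 1859 and 1733 FPKM in the sham mice and 1552, 1408 and 1376 in the paced mice. The subunits' own deviation over the mice was 0.255, 0.255 and 0.263 on the same measure.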

How the data were processed

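Ventricles of 6 mice, 3 sham and 3 paced, were profiled by stranded polyA RNA sequencing with paired reads of 151 bases, per the labels' protocols. Tools named by the submitters' processing notes are Cuffdiff, Cufflinks, Bowtie2 2.2.6, TopHat2 2.1.0 and FastQC 1.0.0, with build mm10; for annotation, filters and strand setting nothing was found in those notes, the labels or headers. The authors deposited 1 FPKM value per gene and mouse, with 0.01 in place of 0, and, per the file headers, a second table with an FPKM and a q-value per group comparison. The authors' deposited fold column holds spreadsheet errors and was not used. Deposited starts count from 0 (51.3% of 23062 are 1 less than RefSeq, 2.9% equal) and are printed counting from 1.

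FPKM is no count, so log2(FPKM + 1) of the 11994 genes whose mean FPKM reached 1 was fitted with limma 3.58.1 (R 4.3.3, trended eBayes, a single group term), with two-sided p-values and Benjamini-Hochberg adjustment over all genes tested, and checked on simulated data. The labels call the mice separate samples, so p-values measure the spread between mice. Lower genes and ratios were compared by exact permutation tests (scipy 1.17.1). No pair of libraries was a copy. Depth was estimated from 685 genes without introns, 800 to 3000 bases long, whose values under 10 fragments were whole multiples within 0.05 fragments in 100% of cases after shortening lengths by 166 bases; fragments per gene are estimates from GENCODE vM21 transcript lengths. 1 row with a failed value was left out.

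Members, gene lists, marker lists, tests and alternatives were chosen with earlier results of these data known. Named were the 6 subunits, of the partner list the 3 higher and 3 lower genes of lowest p and 7 by role, of which Fgf12 is also among those 3 and 1 is not reported here, the 2 most abundant genes of the marker lists that the text turns to, single markers that define a cell type, and the 2 nearest patterns per tested subunit. The ventricular, atrial, conduction, adipocyte, smooth muscle, endothelial, lung, neuron and skeletal muscle lists held 15, 10, 9, 7, 6, 8, 8, 4 and 3 tested genes. At an unadjusted limma p under 0.05 they gave, in that order, 0, 0, 1, 7, 4, 0, 7, 2 and 0 genes higher. Lower were 3, 0, 0, 0, 0, 2, 0, 0 and 0. The shares of all genes tested were 5.17% higher and 3.69% lower. The conduction call (Shox2), the neuron calls and the lung calls other than Scgb1a1 reached the filter only through the paced mice. Those counts cannot be weighed against these shares. Alternatives were other pseudocounts, filters, scalings and variance models, a replicate block and leaving out mice.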

Additional observations from a re-analysis of the deposited data

How the results depend on the processing

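None of Scn4a, Scn7a and Scn4b passed the adjusted threshold under any alternative run (lowest limma adjusted p 0.347 for Scn4a, 0.324 for Scn7a and 0.202 for Scn4b). For the other subunit genes, the limma result without a filter was not read out. Scn4a was lower in each fit it entered, from -0.50 to -0.26 on the log2 scale with single mice left out. Scn7a, from 0.13 to 0.48 in that way, turned to -0.04 without pacing 2 and pacing 3. Scn4b ranged from -0.35 to 0.04, being 0.0 without sham 2 and 0.04 without sham 3, and turned to 0.10 centred on ventricular cardiomyocyte markers and to 0.01 without pacing 2 and pacing 3; the cause was not tested. Scn10a, Scn2b and Scn3b ranged over 0.03 to 0.21, 0.02 to 0.13 and 0.03 to 0.53, and the log2 ratios of Scn4b to Scn2b, Scn3b to Scn2b and Scn4b to Scn3b over -1.11 to 0.05, 0.13 to 1.21 and -1.69 to -0.32.

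Genes at an adjusted p under 0.05 numbered 6 with no filter, 2 centred on ventricular cardiomyocyte markers, 1 with robust eBayes, and 0 to 100 with single mice left out, the 100 being without sham 1, 8 without pacing 1 and 1 without pacing 3. At an unadjusted p, 381 were higher with a filter at 5, 1769 higher and 11 lower centred on those markers, 969 and 148 after rescaling, 360 and 248 without pacing 2 and pacing 3, and 412 to 994 higher and 295 to 733 lower with single mice left out. Of the partners and regulators, 4 were higher and 0 lower centred on those markers, 4 lower centred on medians, 4 lower with array weights, 1 lower without pacing 2 and pacing 3, and 0 to 2 higher and 0 to 3 lower with single mice left out. Centred on those markers Fgf13 (0.14), Camk2d (0.06), Ank3 (0.14) and Gpd1l (0.10) changed sign, as did Fgf13 (0.02) and Ank3 (0.01) after rescaling, Fgf13 without sham 2 (0.0) and without pacing 2 and pacing 3 (0.10), Ank3 without sham 2 (0.02) and Nedd4l without pacing 1 (-0.01); with single mice left out Fgf13 reached -0.17, Ank3 -0.11 and Nedd4l 0.11. The authors' deposited table calls 11 genes lower at a q under 0.01, against 37.

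Mice share only a replicate number: deviations from the group means correlated at -0.125, -0.022 and -0.02 for mice 1, 2 and 3. With a replicate block 7 genes passed, none of them a subunit, Scn4a stayed at -0.39 (limma p = 0.0526), Scn7a at 0.30 and Scn4b at -0.10, and paired exact tests, which leave the differences as they are, gave p = 0.50 for Scn10a and Scn2b, 0.75 for Scn3b, and 0.75, 1.0 and 0.75 for the ratios of Scn4b to Scn2b, Scn3b to Scn2b and Scn4b to Scn3b.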
